A study of Bos taurus with 2 samples.

Results

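This report describes 8 transcripts that encode surface molecules and growth receptors of muscle satellite cells, or their ligand, in cultured bovine satellite cells. They are NCAM1, VCAM1 and CD34 (adhesion), SDC4 (co-receptor), HGF and MET (growth factor and receptor), CXCR4 (chemokine receptor) and CALCR (calcitonin receptor). They were chosen by symbol among the 21867 genes counted, and all 8 were found, 1 row each. The cells came from the longissimus muscle of a single 2-week-old male Holstein calf and were cultured in serum-containing growth medium for 1 week without any treatment. Single-cell RNA-seq libraries were then prepared from these cells with 3′ chemistry, in 2 replicates (library 1, library 2). The replicates are library preparations of the same cells, so the SDs and p-values below measure the spread between preparations and not between animals.

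Satellite cells are the stem cells of adult muscle, and they lie between the fibre membrane and the basal lamina. When muscle is injured, hepatocyte growth factor (HGF) held in the matrix is released and acts on its tyrosine kinase receptor MET, and the cells leave quiescence. CXCR4 on the cell membrane binds the chemokine CXCL12 and guides migration, VCAM1 binds the integrin made of ITGA4 and ITGB1, and syndecan-4 (SDC4) presents heparin-binding growth factors to their receptors. CALCR is known as a receptor of quiescent satellite cells that is lost on activation, CD34 is a sialomucin of stem cells, and NCAM1 is a cell adhesion molecule of myogenic cells. Several of these proteins are used to sort satellite cells by flow cytometry.

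The files held 19096 cells, 9939 in library 1 and 9157 in library 2, with a median of 14626 and 15206 unique molecular identifiers (UMIs) per cell. Of all barcodes, 27 occurred in both libraries. The study divided the cells into 15 clusters and named 4 as PAX7-positive and 5 and 8 as PAX3-positive satellite cells. It named 1 and 2 as myoblasts, 3 and 12 as differentiating or differentiated myoblasts (myocytes), and 7 and 9 as fibro-adipogenic progenitors. It gave no identity to the remaining 6 clusters. Clusters 1, 2, 3, 4, 5, 8 and 12 are called the myogenic clusters below. The cells of clusters 7, 13, 14 and 15 were shallow, with a median of 1389, 1631, 2513.5 and 647 UMIs. A level is the number of UMIs of a gene per 10000 UMIs of a cluster in a library, given as mean ± SD (n = 2 libraries). Levels are compared between clusters and not between genes.

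The labels of clusters 7 and 9 were checked against 6 fibro-adipogenic markers, all of which were detected in cluster 9. PDGFRA was at 1.58 ± 0.074 in cluster 9 and 1.48 ± 0.36 in cluster 7, against 0.159 in the myogenic clusters. The summed level of the 6 markers was nevertheless 55.8 and 57.2 in cluster 9, below 83.3 and 84.2 in the myogenic clusters, and it was 336 and 342 in cluster 7. COL1A1, COL3A1 and THY1 had lower levels in cluster 9 than in the myogenic clusters, and DCN and LUM were at 9.25 and 2.93 against 7.05 and 2.88. The summed level did not set cluster 9 above the myogenic clusters, whereas PDGFRA was higher there. The study also drew on PPARG and ZNF423 transcripts and on gene ontology terms for lipogenesis, which were not checked here. Cluster 9 is called by its number below. All 7 pericyte and smooth muscle markers were detected in cluster 9 and summed to 0.913 and 0.939, against 0.141 and 0.143 in the myogenic clusters. Not every one was higher there, since MCAM was lower than in the myogenic clusters, with a log2 fold change of −1.85. That value rested on few MCAM UMIs in cluster 9, and MCAM was tested only through its UMIs in the myogenic clusters. The 5 of 7 blood markers detected in cluster 9 summed to 0.0585 and 0.0657, against 0.0243 and 0.0251. PTPRC and AIF1, which define blood cells and macrophages, were at 0 UMIs in cluster 9, as were TIE1 of endothelial and SOX10 of Schwann cells. The part of these markers in the results below was not tested. The 6 myocyte markers summed to 3.26 and 2.25 in cluster 9, against 32.4 and 32.7 in the myogenic clusters. In cluster 7 they summed to 38.9 and 35.9, above the myogenic clusters. The pericyte and smooth muscle markers summed to 2.12 and 2.56 in cluster 7, with 5 of 7 detected. The markers thus do not single out a fibro-adipogenic identity for cluster 7 either, and it is also called by its number.

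NCAM1 was the deepest counted of the 8 transcripts, with 123242 UMIs in 16893 cells (88.5%). Its level was 6.16 ± 0.291 in cluster 12 (5.96 and 6.37 in the libraries), 6.03 ± 0.179 in cluster 1 (5.90 and 6.16) and 5.92 ± 0.0376 in cluster 3 (5.95 and 5.90). Cluster 1 overlapped both clusters 12 and 3, and the libraries of cluster 12 lay just above those of cluster 3. These 3 clusters lay above the other myogenic clusters in both libraries. Cluster 8 followed with 4.82 and 5.18 in the libraries, and then cluster 5 with 4.13 ± 0.134, cluster 2 with 3.81 ± 0.0293 and cluster 4 with 3.57 ± 0.0388. The libraries of these 4 clusters did not overlap, and cluster 4 was below every other myogenic cluster in both. Of the clusters without an identity, 6 was at 4.59 ± 0.0846, 10 at 4.25 ± 0.0468, 13 at 4.05 ± 0.403, 11 at 3.09 ± 0.125, 15 at 2.12 ± 0.768 and 14 at 1.49 ± 0.0196. The lowest level was that of cluster 9, with 0.887 and 0.899 (0.893 ± 0.00851), and the highest that of cluster 7, with 11.9 ± 0.181.

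The UMI sums of each cluster in both libraries were tested against those of all other cells, 2 sums against 2, by edgeR's quasi-likelihood test, and genes were called at a Benjamini-Hochberg adjusted p below 0.05. The clusters were drawn from these same counts, so none of these p-values is independent evidence of a difference. NCAM1 was higher in clusters 1, 3, 7, 8 and 12 and lower in clusters 2, 4, 9, 11 and 14. Clusters 1, 3 and 12 differed little, with log2 fold changes of 0.63 (SE 0.035, adjusted p = 1.67e-04 from edgeR), 0.66 and 0.71, and cluster 8 had 0.26. The value was −0.23 for cluster 2, −0.32 for 4, −0.57 for 11 and −1.46 for 14. With the other clusters weighted equally, cluster 2 was at 0.029 and cluster 4 at −0.08, and neither was called. With the library as a block, NCAM1 was also called higher in cluster 6 (0.13) and lower in clusters 10 (−0.15), 13 (−0.22) and 15. DESeq2 called clusters 6, 10 and 15 in the same directions. Equal weights called clusters 5 (0.21) and 6 (0.35) higher and 15 lower. Cluster 6 was also called without cells under 2000 UMIs, and cluster 10 without a filter on low counts. In cluster 9 the log2 fold change of NCAM1 was −2.43 (SE 0.045, adjusted p = 1.26e-06 from edgeR).

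In cluster 7 the log2 fold change of NCAM1 was 0.82, but this value depends on the scaling. It was 1.47 with plain library totals in place of TMM normalization, which moved the median of all genes in this cluster by 0.65, and 0.99 when cells under 2000 UMIs were left out. The direction and the call held under each of these settings.

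**Figure D1:**
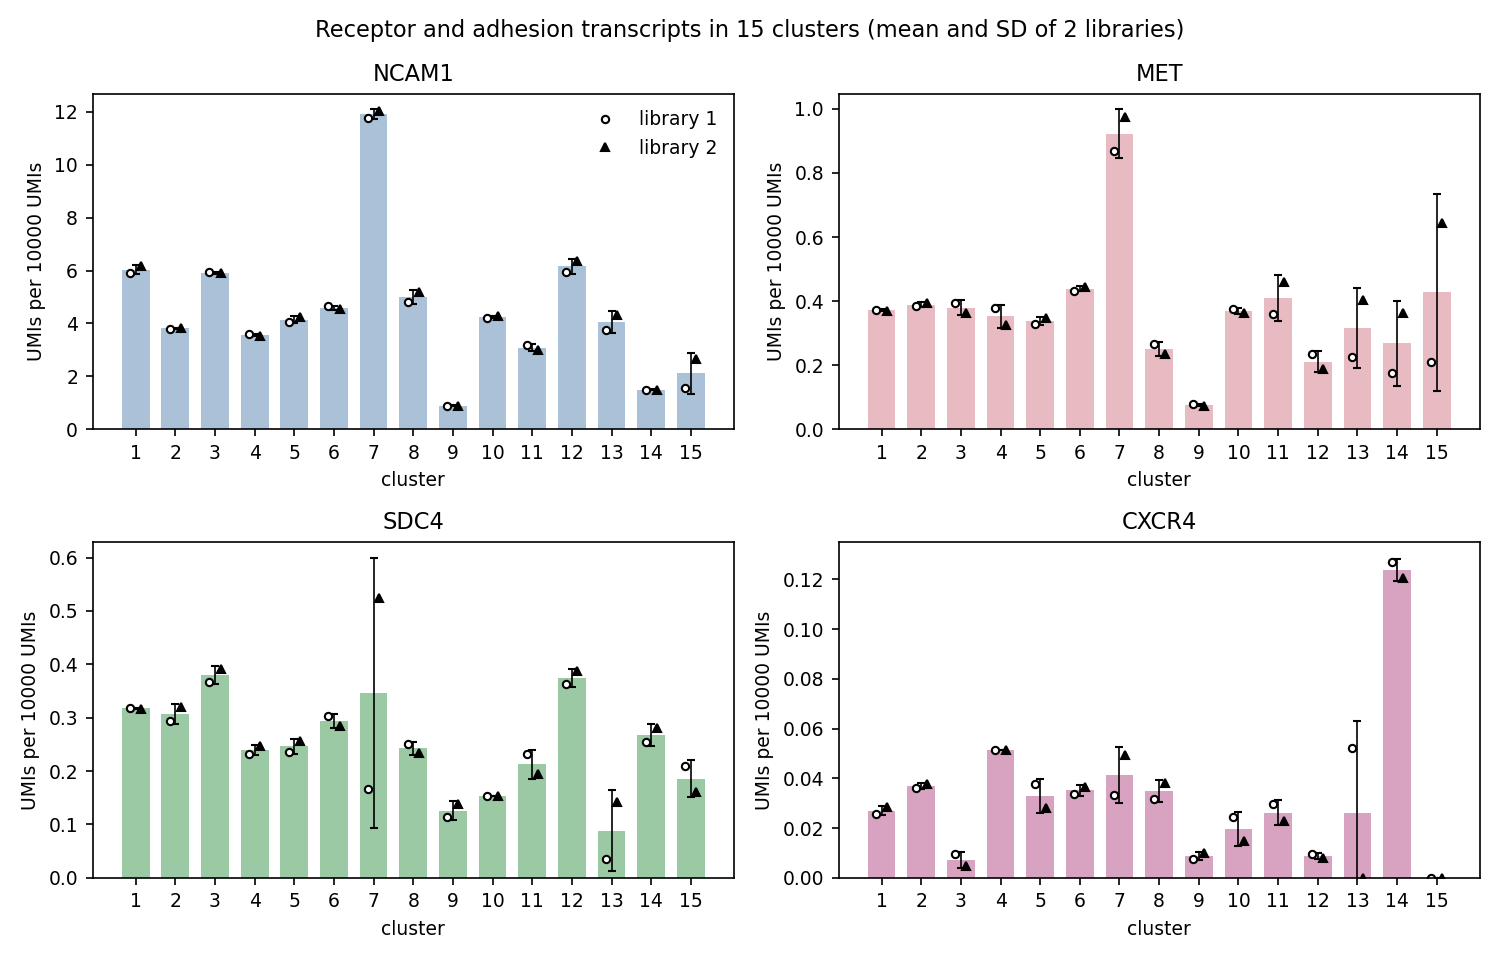
Levels of NCAM1, MET, SDC4 and CXCR4 in UMIs per 10000 UMIs (y axes, starting at 0) in the 15 clusters (x axes). Bars are means of 2 libraries, error bars are SDs, and the circles and triangles are libraries 1 and 2; cluster 9 is the lowest for NCAM1 and MET, with 0.893 and 0.0756, and CXCR4 is low in clusters 3, 9 and 12.

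Along the steps that the study drew between myogenic clusters, from 8 through 1 and 3 to 12 and from 8 through 5 and 4 to 2, neighbouring clusters were also compared directly. Each cluster but the last of a branch enters more than 1 of these comparisons, so they share sums. NCAM1 was higher in cluster 1 than in 8, with a log2 fold change of 0.30 (SE 0.051, adjusted p = 0.00242 from edgeR), and lower in cluster 5 than in 8, with −0.27 (adjusted p = 0.00472 from edgeR). It was lower again in cluster 4 than in 5, with −0.24 (adjusted p = 0.0129 from edgeR). Between clusters 3 and 1 the value was 0.01 and between 2 and 4 it was 0.08, and neither passed the test, although the second did with the library as a block (adjusted p = 0.0492 from edgeR). The value of 0.15 in cluster 12 over cluster 3 passed it (adjusted p = 0.0409 from edgeR), but not without TMM (0.366), without a filter on low counts (0.0935) or with doublets left out (0.0527).

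Cluster 9 was set against the myogenic clusters together, where NCAM1 was at 4.77 and 4.86. The log2 fold change was −2.45 (SE 0.037, adjusted p = 4.33e-06 from edgeR). Scrublet called 14.4% of the cells of cluster 9 doublets, against 7.58% and 7.01% of all cells in libraries 1 and 2. With these doublets left out, the level in cluster 9 was 0.536 instead of 0.893, and the log2 fold change was −3.21.

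To set cells of unequal depth side by side, each cell was thinned to 5000 UMIs, which left out 3100 shallower cells, 1286 of them in cluster 7. After thinning, 94.1% of the cells of cluster 12 held an NCAM1 UMI, as did 92.2% of cluster 1, 77.7% of cluster 4 (exact 95% interval 75.6% to 79.6%) and 26.6% of cluster 9 (23.96% to 29.3%). Without thinning these shares were 99.2%, 98.4%, 97.9% and 61.4%. The intervals cover counting error only. Of the thinned cells, 19.4% of cluster 12 and 19.5% of cluster 1 held 5 or more NCAM1 UMIs, compared with 5.73% of cluster 4. The variance of the thinned NCAM1 counts over their mean lay above 1, the value for equal cells under pure sampling. Clusters 1, 4, 12 and 8 had 1.35, 1.33, 1.44 and 1.63.

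**Figure D2:**
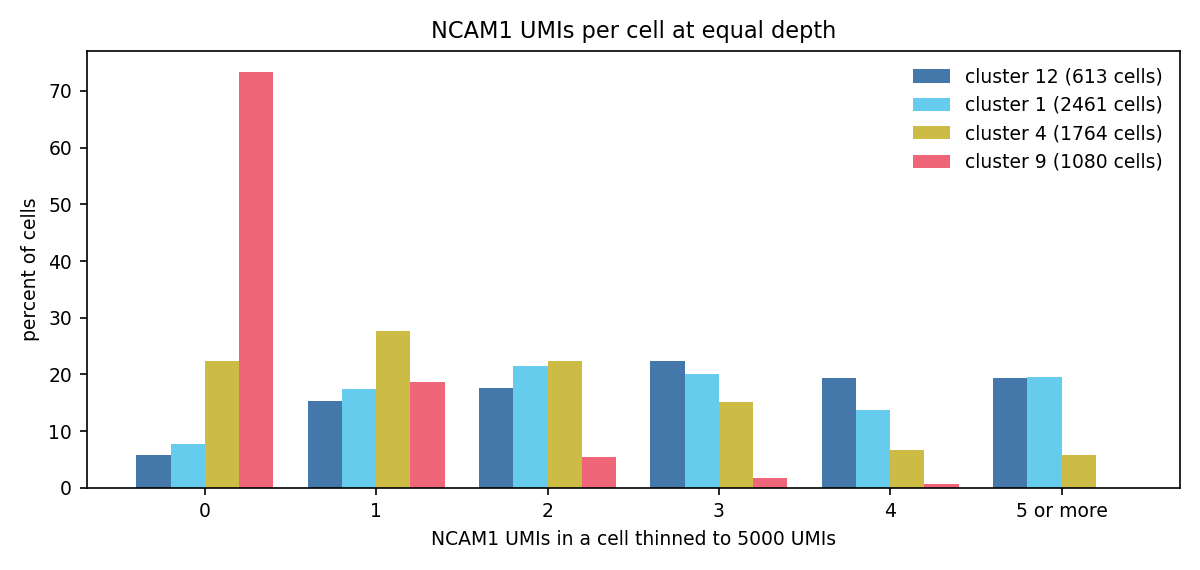
Percent of cells (y axis, starting at 0) with 0, 1, 2, 3, 4 or 5 and more NCAM1 UMIs (x axis) after thinning each cell to 5000 UMIs, in clusters 12, 1, 4 and 9. In cluster 9, 73.4% of the cells held none, against 22.3% in cluster 4, 7.76% in cluster 1 and 5.87% in cluster 12.

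SDC4 had 7774 UMIs in 5935 cells (31.1%). Its level was highest in the MYOG-expressing clusters, with 0.368 and 0.391 in cluster 3 (0.380 ± 0.0168) and 0.363 and 0.387 in cluster 12 (0.375 ± 0.017). Clusters 1 and 2 were at 0.317 ± 0.000916 and 0.307 ± 0.0191, below clusters 3 and 12 in both libraries. The satellite cell clusters were lower, with 0.246 ± 0.0139 in cluster 5, 0.243 ± 0.0121 in cluster 8 and 0.239 ± 0.00983 in cluster 4, and these 3 overlapped. Cluster 9 was at 0.126 ± 0.0179 and cluster 10 at 0.154. In cluster 7 the libraries disagreed, with 0.167 from 15 UMIs and 0.525 from 64 UMIs, and no direction can be read there.

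Against all other cells, SDC4 was called higher in 3 myogenic clusters. Its log2 fold change was 0.32 in cluster 1, 0.68 in cluster 3 (SE 0.051, adjusted p = 1.81e-04 from edgeR) and 0.65 in cluster 12. Called lower were cluster 4 with −0.22, 9 with −1.24, 10 with −0.96, 11 with −0.43 and 13 with −1.88. Cluster 4 was not called with DESeq2 (adjusted p = 0.0651) and was at 0.053 with the other clusters weighted equally, under which cluster 11 was not called either (−0.16). With the library as a block, SDC4 was also called higher in clusters 2 (0.17) and 6 (0.16). Equal weights for the other clusters gave these 2 calls as well (0.44 and 0.415). The value of cluster 13 rested on 8 UMIs, and it was not called when cells under 2000 UMIs were left out (adjusted p = 0.112 from edgeR). In the direct comparisons SDC4 was higher in cluster 1 than in 8 (log2 fold change 0.42, SE 0.080, adjusted p = 0.00459 from edgeR), in 3 than in 1 (0.29, SE 0.061, adjusted p = 0.00769 from edgeR) and in 2 than in 4 (0.34, SE 0.073, adjusted p = 0.0138 from edgeR). With DESeq2 the last 2 steps had adjusted p-values of 0.0710 and 0.0572. Between clusters 12 and 3 (0.08), 5 and 8 (0.02) and 4 and 5 (−0.07) SDC4 did not pass the test. In cluster 9 it was lower than in the myogenic clusters by a log2 fold change of −1.28 (SE 0.092, adjusted p = 1.96e-04 from edgeR).

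At 5000 UMIs per cell, 17.5% of the cells of cluster 12 and 17.1% of cluster 3 held an SDC4 UMI, against 14.1% of cluster 1 and 5.09% of cluster 9 (exact 95% interval 3.86% to 6.58%). Unthinned, these shares were 49.0%, 46.6%, 34.3% and 25.2%. The other syndecans went different ways. SDC2 was at 0.438 ± 0.00474 in cluster 9 against 1.39 ± 0.0348 in the myogenic clusters, lower as SDC4 was, whereas SDC1 (0.388 ± 0.0232 against 0.295) and SDC3 (0.167 ± 0.00826 against 0.065) were higher. The log2 fold changes were −1.69 for SDC2, 0.37 for SDC1 (adjusted p = 0.0025 from edgeR) and 1.34 for SDC3. In cluster 12 over 3, where SDC4 did not pass the test, SDC1 (−0.76) and SDC2 (−0.34) were lower, and SDC3 did not pass at −0.75 (adjusted p = 0.196 from edgeR).

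MET had 9671 UMIs in 6734 cells (35.3%). Among the myogenic clusters, cluster 2 was at 0.389 ± 0.00775, 3 at 0.380 ± 0.0224, 1 at 0.372 ± 0.00256, 4 at 0.352 ± 0.0359 and 5 at 0.339 ± 0.0128. Each of these overlapped its neighbour in this order. Cluster 8 was below them with 0.267 and 0.236 (0.251 ± 0.0225), and cluster 12 was lower still with 0.234 and 0.189 (0.211 ± 0.0323). Cluster 6, which has no identity, was at 0.439 ± 0.00832 and cluster 7 at 0.923 ± 0.0751 from 197 UMIs. Cluster 9 was far below all others with 0.0782 and 0.0731 (0.0756 ± 0.00363), from 200 UMIs.

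Against all other cells, MET was called higher in clusters 1, 2, 3, 6 and 7 and lower in clusters 8, 9 and 12. The log2 fold changes of clusters 1 (0.22), 2 (0.21) and 3 (0.31) were small, and that of cluster 6 was 0.46 (SE 0.042, adjusted p = 0.00257 from edgeR). It was 0.82 in cluster 7, and 1.46 there without TMM and 0.63 with cells under 2000 UMIs left out. With the library as a block, cluster 11 was also called higher (0.23), as it was with the other clusters weighted equally (0.32). The lower clusters had −0.41 (cluster 8), −0.54 (cluster 12) and −2.32 (cluster 9, SE 0.071, adjusted p = 4e-06 from edgeR).

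On the branch through cluster 1, MET was higher in cluster 1 than in 8 by a log2 fold change of 0.60 (SE 0.084, adjusted p = 0.00106 from edgeR), and between clusters 3 and 1 it did not pass the test (0.07). In cluster 12 it was lower than in cluster 3, with −0.75 (SE 0.12, adjusted p = 0.00222 from edgeR), the step at which SDC4 did not pass. On the other branch MET was higher in cluster 5 than in 8 (0.43, SE 0.091, adjusted p = 0.01 from edgeR, and 0.0721 from DESeq2) and did not pass between 4 and 5 (0.03) or 2 and 4 (0.13).

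In cluster 9 MET was lower than in the myogenic clusters, which were at 0.349 ± 0.0119, by a log2 fold change of −2.22 (SE 0.073, adjusted p = 1.75e-05 from edgeR). With doublets left out, its level in cluster 9 was 0.0499 and the log2 fold change −2.83. After thinning to 5000 UMIs, 2.96% of the cells of cluster 9 held a MET UMI (exact 95% interval 2.04% to 4.16%), against 19.6% of cluster 6, 17.6% of cluster 1, 11.3% of cluster 8 and 10.1% of cluster 12. Unthinned, the shares were 15.3%, 55.9%, 37.4%, 26.8% and 30.9%.

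**Figure D3:**
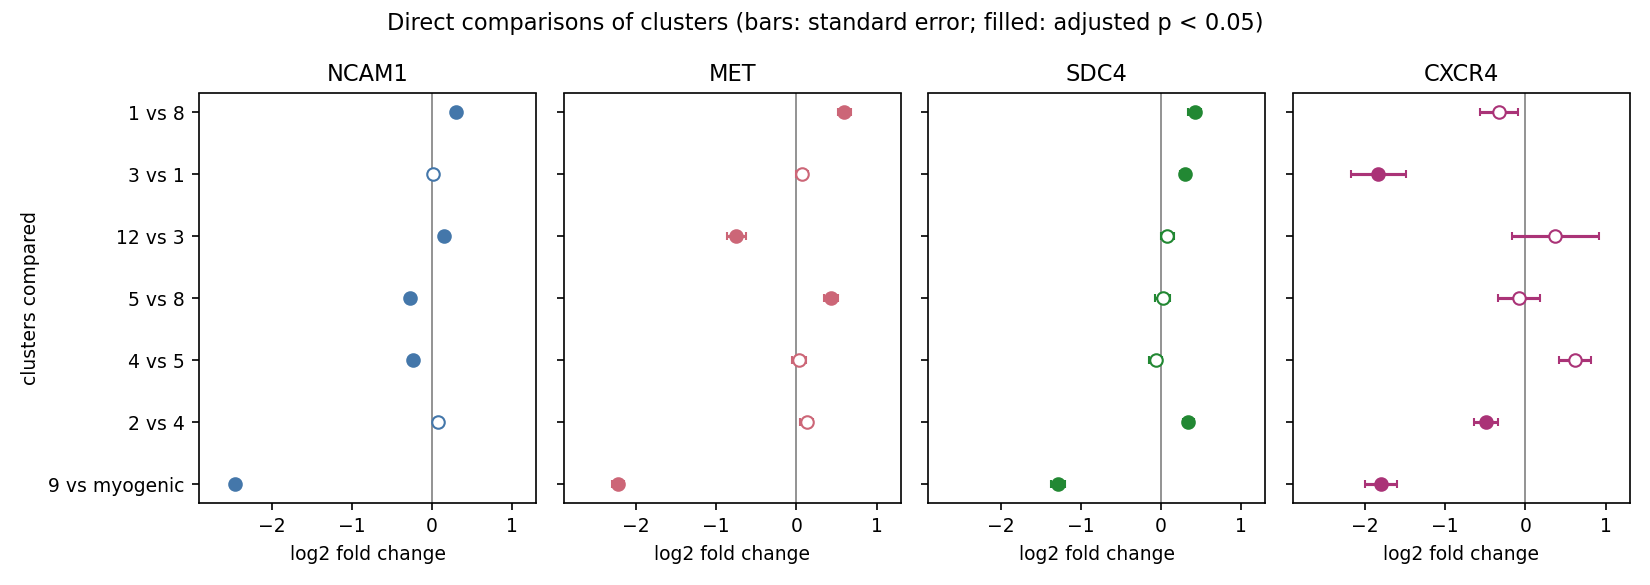
Log2 fold changes (axis) of NCAM1, MET, SDC4 and CXCR4 in the 7 direct comparisons of clusters, with SEs as error bars; filled symbols have an adjusted p below 0.05 from edgeR's quasi-likelihood test. All 4 are lower in cluster 9 than in the myogenic clusters, from −2.45 for NCAM1 to −1.28 for SDC4, and MET is lower in cluster 12 than in cluster 3 (−0.75).

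HGF, the ligand of MET, was scarce, with 86 UMIs in 80 cells, and 67 of these (77.9%) lay in cluster 9, which held 9.31% of all UMIs. Library 1 had 41 and library 2 had 26 HGF UMIs in cluster 9, in 61 cells, at a level of 0.0289 and 0.0213 (0.0251 ± 0.00533). In the 7 myogenic clusters together there were 7 and 7 UMIs, at a level of 0.000709. The ratio of the UMI shares of cluster 9 and the myogenic clusters was 35.9 (exact 95% interval 19.96 to 69.1), and the log2 fold change was 5.09 (SE 0.33, adjusted p = 1.44e-04 from edgeR). HGF passed the filter on low counts in this comparison only through its UMIs in cluster 9, so the p-value adds no support to the counts. Without doublets, 61 HGF UMIs remained in cluster 9. Cluster 8 held 5 HGF UMIs, cluster 4 held 3, and clusters 1, 3, 7 and 11 held 2 each, and no other cluster held more than 1.

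HGF was called higher in cluster 9 than in all other cells (log2 fold change 5.03) and lower in clusters 2, 3 and 12. In each of these tests it passed the filter on low counts only through the side that held cluster 9, so the calls add no support to the counts. Since the other cells include cluster 9, these lower calls compare with a sum that is mostly that cluster. Cluster 2 had 1 UMI, a ratio of 0.0726 (exact 95% interval 0.00182 to 0.415), and cluster 3 had 2, a ratio of 0.167 (0.0199 to 0.623). Cluster 12 had none, and taking 3 counts as the floor over both libraries it was at least 1.31-fold lower. When the other clusters were weighted equally, the call in cluster 9 was kept and those in clusters 2, 3 and 12 were not. With the library as a block, clusters 1, 4, 5 and 6, with 2, 3, 1 and 1 UMIs, were also called lower. Clusters 4 and 6 were called lower with doublets left out, too. Equal weights called cluster 7 higher (3.64), from 2 UMIs.

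The cluster with most of the HGF was thus also the cluster with the least MET. At 5000 UMIs per cell, 12 cells of cluster 9 held an HGF UMI and 0 of them a MET UMI, which allows a share of up to 26.5% (exact 95% interval). Of the 1068 without an HGF UMI, 32 (3.00%) held one of MET. The number of cells with HGF is too small to show a difference at this depth. In all other clusters 3 of 8 cells with an HGF UMI and 2385 of 14908 without (exact 95% interval 15.4% to 16.6%) held a MET UMI.

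**Figure D4:**
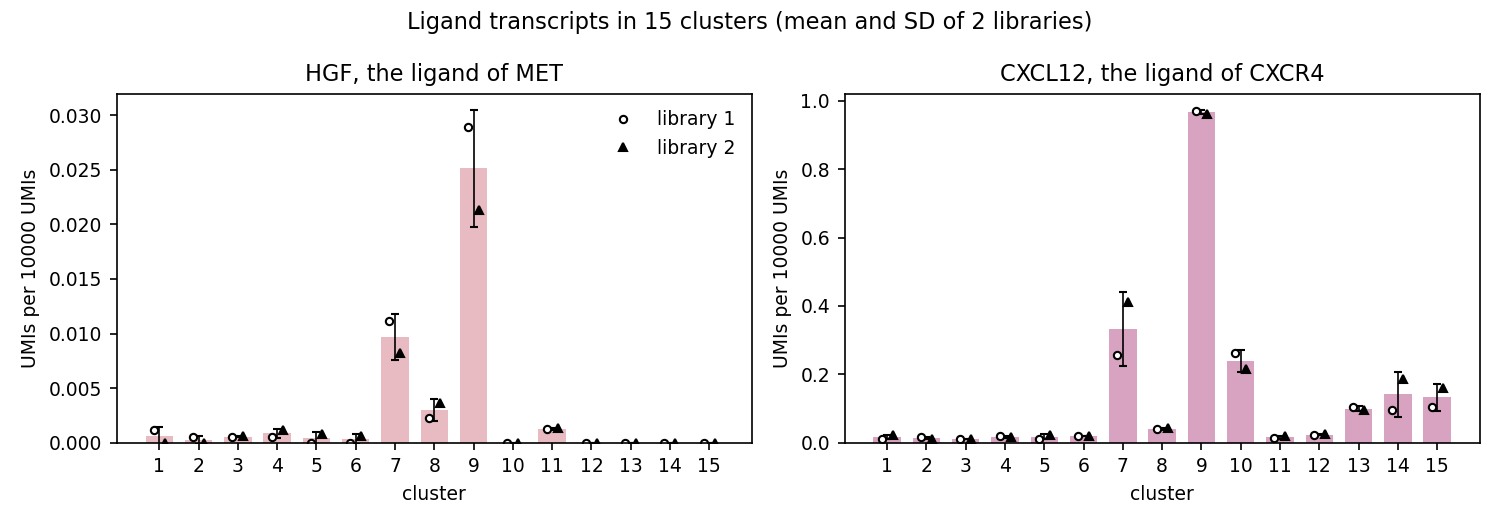
Levels of HGF and CXCL12, the ligands of MET and CXCR4, in UMIs per 10000 UMIs (y axes, starting at 0) in the 15 clusters. Bars are means of 2 libraries, error bars are SDs, and circles and triangles are libraries 1 and 2; cluster 9 is highest for both, with 0.0251 for HGF and 0.966 for CXCL12, and the bar of HGF in cluster 7 stands for 2 UMIs.

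Genes that process HGF were read as well. PLAU, a protease that can cleave pro-HGF, was at 1.99 ± 0.0654 in cluster 9 and 2.12 in the myogenic clusters (log2 fold change −0.12, adjusted p = 0.0427 from edgeR). HGFAC, the HGF activator, was lower in cluster 9, with 0.00581 ± 0.00224 from 15 UMIs against 0.0173 ± 0.00142 (log2 fold change −1.62 [SE 0.30]). SPINT2, an inhibitor of HGF-activating proteases, was lower there too, with 0.110 ± 0.0124 against 0.312 ± 0.0182 (−1.53). The matriptase gene ST14 had 0 UMIs in all cells and SPINT1 had 10. GAB1, an adaptor of MET, did not pass the test in cluster 9 (0.141 against 0.151, −0.12, adjusted p = 0.184 from edgeR). From cluster 3 to 12, where MET was lower, PLAU was lower with −0.87, whereas HGFAC was higher with 1.51 and SPINT2 with 0.72, and GAB1 did not pass (0.34).

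CXCR4 had 811 UMIs in 701 cells (3.67%), 418 in library 1 and 393 in library 2. Among the myogenic clusters it was highest in cluster 4, with 90 and 88 UMIs and a level of 0.0513 in each library. Clusters 2 (0.0369 ± 0.00138), 8 (0.0349 ± 0.00447), 5 (0.0328 ± 0.00692) and 1 (0.0269 ± 0.00189) followed, each overlapping the next. The MYOG-expressing clusters were lowest, with 12 at 0.00887 ± 0.00125 from 11 UMIs and 3 at 0.00719 ± 0.00328 from 18 and 8 UMIs, and cluster 9 was at 0.00880 ± 0.00149 from 23. These 3 overlapped each other and lay below every other cluster with a CXCR4 UMI in both libraries, except that cluster 13 had none in library 2.

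Against all other cells CXCR4 was higher in cluster 4 (log2 fold change 1.01, SE 0.12, adjusted p = 0.00252 from edgeR), in cluster 2 (0.42, adjusted p = 0.0462 from edgeR, and 0.221 from DESeq2) and in cluster 14. It was lower in cluster 3 (−1.97, SE 0.28, adjusted p = 0.00201 from edgeR), cluster 9 (−1.84) and cluster 12 (−1.55), but these 3 calls were lost when the other clusters were weighted equally. Their values then stayed negative, with −1.29, −1.155 and −0.91. That weighting gives cluster 15, which had no CXCR4 UMI, the same weight as each other cluster. The part of cluster 15 in the lost calls was not tested. With the library as a block, cluster 6 was also called higher (0.38). With the other clusters weighted equally, clusters 6 (1.00) and 8 (1.02) were called higher. In cluster 14 the log2 fold change was 2.23 (SE 0.31, adjusted p = 0.014 from edgeR), and the level of 0.127 and 0.121 rested on 8 and 9 UMIs in 14 cells. Of its 280 cells that reached 2000 UMIs, 5 held a CXCR4 UMI after thinning to that depth (1.79%, exact 95% interval 0.582% to 4.12%), against 1.02% of cluster 4. None of the 78 cells that reached 5000 UMIs held one after thinning to 5000, which allows a share of up to 4.62% (exact 95% interval).

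From cluster 1 to 3, CXCR4 was lower by a log2 fold change of −1.83 (SE 0.34, adjusted p = 0.00491 from edgeR). In this comparison CXCR4 passed the filter on low counts only through its UMIs in cluster 1, so its call adds no support to the counts. Between clusters 12 and 3 (0.37), 1 and 8 (−0.33) and 5 and 8 (−0.08) it did not pass the test. The value of 0.61 in cluster 4 over 5 had an adjusted p of 0.0805 from edgeR, and 0.017 with the library as a block. The lower value in cluster 2 than in 4 (−0.49, adjusted p = 0.0491 from edgeR) was not called with DESeq2 (0.368), without TMM (0.0532), without a filter on low counts (0.0612) or with doublets left out (0.0639). In cluster 9 CXCR4 was lower than in the myogenic clusters, by a log2 fold change of −1.80 (SE 0.20, adjusted p = 8.73e-04 from edgeR).

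After thinning, 2.32% of the cells of cluster 4 held a CXCR4 UMI (exact 95% interval 1.67% to 3.14%), 0.591% of cluster 3 and 0.556% of cluster 9. Unthinned, the shares were 8.31%, 1.18% and 1.94%. The intervals of clusters 3 (0.306% to 1.03%) and 9 (0.204% to 1.21%) overlap. Free RNA was not measured, and its part in these low shares was not tested.

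CXCL12, the ligand of CXCR4, had 1378 and 1172 UMIs in cluster 9, a level of 0.966 ± 0.0061. In the myogenic clusters it was at 0.0182 ± 0.0012, so the log2 fold change was 5.71 (SE 0.066, adjusted p = 3.26e-06 from edgeR). Cluster 7 was next with 0.333 ± 0.109, then cluster 10 with 0.239 ± 0.0331, and the highest myogenic cluster was 8 with 0.0413 ± 0.00233. Cluster 12 was above cluster 3, with 30 against 39 UMIs at levels of 0.0242 and 0.011 (1.22, adjusted p = 0.0231 from edgeR). The other receptor of CXCL12, ACKR3, was at 0.00815 ± 0.00356 in cluster 9 and 0.00824 ± 0.0023 in the myogenic clusters, and it did not pass the test (−0.06).

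CALCR, CD34 and VCAM1 were near the limit of detection. CALCR had 54 UMIs in 51 cells, 37 in library 1 and 17 in library 2. Cluster 1 held 16 of them (10 and 6), cluster 2 held 12, cluster 4 held 9, cluster 6 held 6, cluster 5 held 5, cluster 10 held 4 and clusters 3 and 8 held 1 each. The ratio of UMI shares of cluster 1 and all other cells was 3.11 (exact 95% interval 1.62 to 5.71). By level, cluster 10 (0.00515 ± 0.000361) stood first and overlapped cluster 1 (0.00472 ± 0.00156). The ratio of cluster 10 was 2.83 (0.743 to 7.71). The log2 fold change of 1.71 in cluster 1 had an adjusted p of 0.0821 from edgeR, and of 8.28e-04 with the library as a block. In both fits CALCR passed the filter on low counts only through its UMIs in cluster 1. The p-values thus add no support to the counts. In cluster 9, CALCR had no UMI, which with a floor of 3 counts over both libraries is at least 1.85-fold lower than in all other cells.

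CD34 had 35 UMIs in 35 cells, 12 in library 1 and 23 in library 2. Cluster 9 held 7, clusters 1, 4 and 11 held 4 each, clusters 2, 3, 5 and 6 held 3 each, cluster 8 held 2 and clusters 7 and 10 held 1 each. The ratio of UMI shares of cluster 9 and the myogenic clusters was 2.76, with an exact 95% interval of 0.981 to 6.86, and the log2 fold change of 1.42 did not pass the test (adjusted p = 0.14 from edgeR). VCAM1 had 16 UMIs in 16 cells, 10 in library 1 and 6 in library 2. They lay in cluster 2 (4), cluster 9 (4), cluster 1 (3), cluster 4 (2) and clusters 5, 6 and 7 (1 each). The ratio of cluster 9 and the myogenic clusters was 3.00 (0.686 to 10.4), and VCAM1 passed the filter on low counts in no comparison. Differences of CD34 and VCAM1 between clusters were not detectable at this depth.

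**Figure D5:**
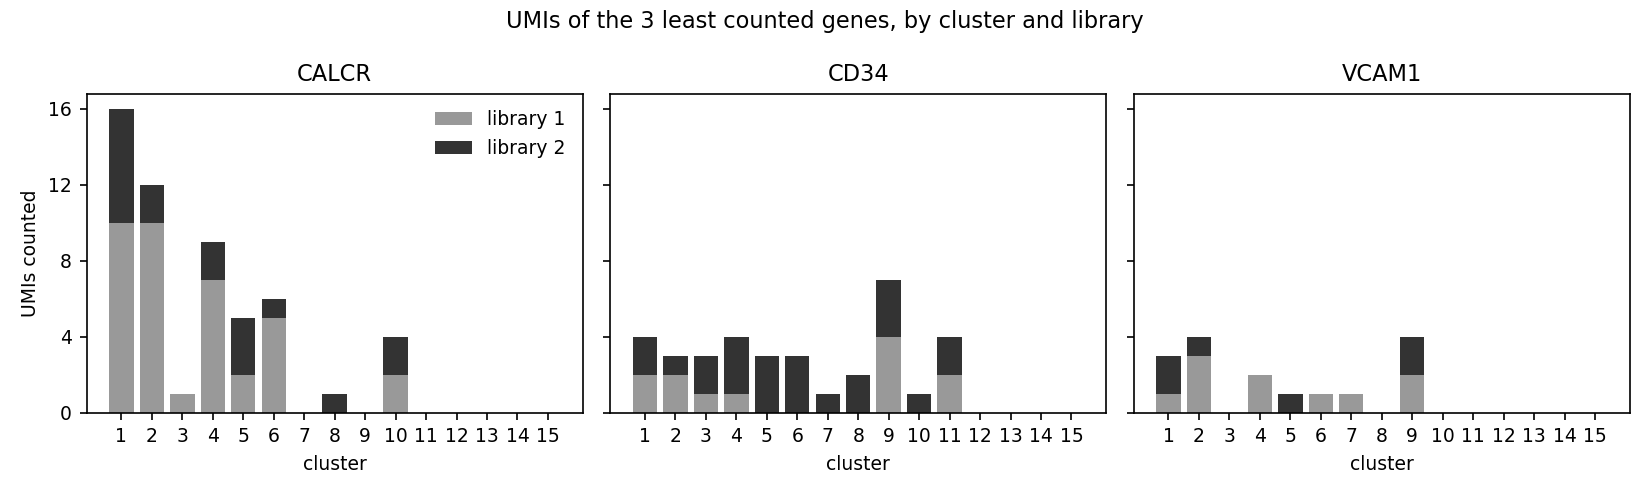
UMIs (y axes, starting at 0) of CALCR, CD34 and VCAM1 in the 15 clusters (x axes), by library. CALCR has 16 of its 54 UMIs in cluster 1 and none in cluster 9, while the 35 UMIs of CD34 and the 16 of VCAM1 are spread over several clusters.

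Partners of these rare transcripts were counted more deeply. RAMP2, RAMP3 and CALCRL encode proteins of calcitonin family receptors, and all were higher in cluster 9 than in the myogenic clusters. RAMP2 was at 1.11 ± 0.0229 against 0.217 ± 0.003 (log2 fold change 2.33), RAMP3 had 65 against 7 UMIs (6.01), and CALCRL had 99 against 90 UMIs (3.00, SE 0.26, adjusted p = 3.94e-04 from edgeR). RAMP3 passed the filter on low counts only through its UMIs in cluster 9, so its test adds no support to the counts. RAMP1 had 4 against 59 UMIs and did not pass (−0.99). Of the integrin that binds VCAM1, the subunit ITGA4 was lower in cluster 9 (0.0105 ± 0.00208 against 0.0213 ± 0.00114, −1.03, adjusted p = 0.011 from edgeR) and ITGB1 was higher (7.20 ± 0.292 against 4.14 ± 0.328, 0.77). In cluster 12 over 3 these were the reverse, with 1.36 for ITGA4 and −0.20 for ITGB1. PODXL, a relative of CD34, had 4 UMIs in all.

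The transferases that add polysialic acid to NCAM1 differed from each other. ST8SIA2 was higher in cluster 9 than in the myogenic clusters (0.0888 ± 0.00101 against 0.0348 ± 0.0027, log2 fold change 1.33), although NCAM1 was lower there, and ST8SIA4 was lower (0.0194 ± 0.00745 against 0.0406, −1.11). In cluster 12 ST8SIA2 was above cluster 3, with 0.132 ± 0.00292 against 0.0177 ± 0.00418 (3.00, SE 0.22, adjusted p = 3.78e-05 from edgeR), and ST8SIA4 did not pass (0.23). NCAM2 had 0 UMIs.

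Over the 15 clusters against all other cells, 17 pairs of a member and a cluster were called higher and 19 lower, of 89 tested. The share called over all genes was 14.9% higher and 17.1% lower. By cluster, 3 of 6 members tested were called in cluster 1, where 33.4% of all genes tested were called, and 4 of 6 in cluster 2 (31.8% of all genes). All 5 tested were called in cluster 3 (49.9%) and in cluster 12 (54.3%), and 3 of 7 in cluster 4 (31.6%). None of 7 was called in cluster 5 (24.1%), and DESeq2 called none there either. HGF had an unadjusted p below 0.05 in this cluster and was called with the library as a block (−2.94, adjusted p = 0.0331 from edgeR), and NCAM1 was called with the other clusters weighted equally (0.21). In cluster 8, 2 of 6 were called (46.0%). In cluster 9, 5 of 6 were called (53.0%), 4 of them lower, with a median log2 fold change of −1.54 against −0.04 for all genes. The higher one was HGF, which passed the filter on low counts only through its UMIs in this cluster. The clusters without an identity had 1 of 7 in cluster 6 (20.1%), 1 of 7 in cluster 10 (38.6%), 2 of 6 in cluster 11 (26.4%), 1 of 5 in cluster 13 (17.3%) and 2 of 5 in cluster 14 (7.79%), and 2 of 6 were called in cluster 7 (44.7%). In cluster 15, 0% of all genes and none of 5 members were called, though 1192 genes had an unadjusted p below 0.05. DESeq2 called 262 genes there, and edgeR with the library as a block called 25 higher and 215 lower. NCAM1 was called lower in cluster 15 by DESeq2 (adjusted p = 1.66e-05), with the block (−1.23, adjusted p = 5.47e-08 from edgeR) and with equal weights (−1.24).

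The 7 direct comparisons called 17 of 30 pairs tested, with 34.7% of all genes tested called. These were 3 of 4 members in cluster 1 against 8 (34.1% of all genes), 2 of 4 in 3 against 1 (40.2%), 2 of 4 in 12 against 3 (33.8%), 2 of 4 in 5 against 8 (28.5%), 1 of 4 in 4 against 5 (16.4%), 2 of 4 in 2 against 4 (30.2%) and 5 of 6 in cluster 9 against the myogenic clusters (56.5%). HGF and CD34 passed the filter on low counts only in the last of these, through their UMIs in cluster 9. The call of HGF there thus adds no support to its counts. The same holds for the call of CXCR4 in 3 against 1, where it passed the filter only through its UMIs in cluster 1. With shares of this size among all genes, being called in a comparison does not by itself set a member apart.

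Genes of the pathways around the 8 transcripts were counted in cluster 9 against the myogenic clusters, where the median log2 fold change of all genes was −0.01, and 28.9% of all genes were called higher and 27.6% lower. Of 21 tested HGF and MET pathway genes, 7 were higher and 7 lower (median −0.12). PLAUR, the receptor of urokinase, was higher by 2.54, with 2.36 ± 0.106 against 0.398, and NRP1, a co-receptor, by 1.64. In the CXCR4 axis 5 of 14 were higher and 4 lower (median 0.05). GRK3, a receptor kinase, was lower (−1.12), and DPP4, a protease that inactivates CXCL12, had no UMI in cluster 9 against 40 and was at least 1.78-fold lower. DPP4 passed the filter on low counts only through its UMIs in the myogenic clusters. Of 13 partners of VCAM1 and related adhesion molecules, 8 were higher and 3 lower (median 0.49), among them the integrin subunit ITGA9 (2.97) and the transcription factor IRF1 (1.68). MCAM, with 3 UMIs in cluster 9 and 81 in the myogenic clusters, was lower (−1.85). It, too, passed the filter on low counts only through its UMIs in the myogenic clusters.

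Of 20 genes for syndecans, glypicans and heparan sulfate, 8 were higher in cluster 9 and 4 lower (median 0.25). These and the next counts stand beside 28.9% called higher and 27.6% lower among all genes. GPC3, a glypican, was lower (−3.44), with 7 UMIs in cluster 9 against 566 UMIs, and the sulfatase gene SULF2 and the heparan sulfate polymerase gene EXT1 were higher by 3.41 and 2.06. In the calcitonin receptor family 7 of 12 were higher and 1 lower (median 0.93), including RAPGEF3, a target of cyclic AMP (2.69). RAMP3 is among the 7, although it passed the filter on low counts only through its UMIs in cluster 9. Of 6 genes of the CD34 family and other stem cell surface molecules, 4 were higher and 1 lower (median 0.89). EMCN (2.85) had 14 UMIs in cluster 9 and 14 in the myogenic clusters, where the libraries held 12 and 2, KIT was higher by 1.77 and PROM1 by 1.60. EMCN, too, passed the filter on low counts only through its UMIs in cluster 9, so its call adds no support to the counts.

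Of 14 partners and relatives of NCAM1, 6 were higher and 6 lower (median −0.02), beside 28.9% and 27.6% of all genes. The adhesion molecule CHL1 was lower (−3.53) and so was M-cadherin, CDH15 (−2.83), while N-cadherin, CDH2, was higher by 2.93 with 0.29 ± 0.0163 against 0.0374 ± 0.00307. Of 22 other satellite cell markers, 16 were lower and 4 higher (median −1.63). SOX8, a transcription factor of satellite cells (−3.46), and the receptor ERBB3 (−3.40) were lower. NGFR, the nerve growth factor receptor, was higher by 4.51, with 0.164 ± 0.00751 against 0.00706 ± 0.00176.

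In cluster 12 over 3 the same lists were counted, beside a median of −0.02 and 18.2% called higher and 15.6% lower among all genes. Of 17 HGF and MET pathway genes tested, 4 were higher and 5 lower (median 0.01), with CD44, a co-receptor of MET, lower (−0.88). In the CXCR4 axis 2 of 11 were higher and 3 lower (median 0.14), with the arrestin gene ARRB2 higher by 1.39 and the G protein gene GNAI1 lower (−0.97). VCAM1 partners had 2 higher and 2 lower of 11 (median 0.02), and among these ALCAM was lower (−0.93) and RDX higher by 0.28. Syndecans, glypicans and heparan sulfate genes had 1 higher and 6 lower of 15 (median −0.43), among the lower HS6ST1 (−0.75) and the matrix gene TNC (−0.65).

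The calcitonin receptor family had 2 higher and 2 lower of 9 (median 0.12), with CALCRL (2.28) and the kinase gene PRKACA (0.45) higher and the peptide gene ADM lower (−0.80). Among all genes, 18.2% were called higher and 15.6% lower in cluster 12 over 3. Of 3 genes of the CD34 list 2 were lower, THY1 (−0.98) and PROM1, which had 3 against 40 UMIs (−2.09), and the median was −0.98. PROM1 passed the filter on low counts only through its UMIs in cluster 3. NCAM1 partners had 5 higher and 2 lower of 12 (median 0.58), and CHL1 and L1CAM, adhesion molecules of the same superfamily, were higher by 1.57 each. Of 18 other satellite cell markers, 5 were higher and 8 lower (median −0.17). ERBB3 was higher by 4.55 (SE 0.21, adjusted p = 3.54e-06 from edgeR), with 350 against 45 UMIs, and MSTN, which encodes myostatin, by 1.72, while the FGF receptor gene FGFR4 was lower (−1.39).

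Genes with patterns most like each member were sought over the 15 clusters, among 9067 genes with at least 1000 UMIs, by Pearson's r of log2(level + 0.01). These correlations describe 15 points that share libraries and differ in depth. NCAM1 was most like RNF150 (r = 0.952), KCNB2 (0.946) and TGFB2 (0.941). MET was most like NTN5 (0.943, but 0.580 in library 1 alone), EGR1 (0.890) and TTC21B (0.888), and SDC4 most like CD63 (0.917), the gene with identifier ENSBTAG00000007106 (0.898) and MUM1L1 (0.896). For CXCR4 the highest values were 0.857 for CA5B, 0.813 for MPV17 and 0.805 for KHK, which was at 0.393 and 0.531 within the libraries. These names depend on the setting. Over the 11 clusters left without the shallow ones, none of the 3 genes stayed among the first 3 for NCAM1, which was then most like NUDT14 (0.981), RAPSN (0.976) and RAP1GDS1 (0.975). None stayed for MET, now led by IGSF1 (0.966), and 1 each for SDC4 (MUM1L1) and CXCR4 (CA5B). With a pseudocount of 0.1, none stayed for CXCR4, now led by FGL2 (0.865).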

How the data were processed

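The deposited matrix gave UMI counts per gene and cell, made by the authors with Cell Ranger 3.0.2 on ARS-UCD1.2 per the submitters' processing notes, which also name edgeR, and aggregated over 2 libraries of the same cells. The authors' deposited cluster averages, a score of UMIs per cell, were used only to derive the cluster of each cell. By stepwise deduction 6226 cells were assigned, and 12870 by least squares. Together the assignments returned the averages, with 0 of 252240 gene and cluster pairs differing. That check covers the sums of each cluster and not each cell by itself. The authors' columns of fold changes and p-values per cluster were not used. The library of a cell was taken from its barcode suffix.

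UMI counts were summed per cluster and library and tested with edgeR 4.0.16 (R 4.3.3; TMM, filterByExpr, quasi-likelihood test, Benjamini-Hochberg over all genes tested, adjusted p below 0.05). Total UMIs were 145631299 and 137818568. Deviations of same-numbered libraries correlated by 0.167 to 0.669 (against all other cells) and 0.396 to 0.621 (direct), so the numbers pair the sums, and the library as a block was an alternative. Others were plain library totals, DESeq2 1.42.0, no filter, cells under 2000 UMIs or doublets left out (Scrublet in scanpy 1.11.5, score above 0.25, 8% expected; 753 and 642 cells), and equal weights for the other clusters. Tests were checked on simulated counts. Intervals are exact binomial ones and cover counting error only.

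The members and lists were chosen with earlier results of these data known. Named were the 8 members, fixed partners, up to 3 called genes of largest change per list in 2 comparisons, and 3 genes of most similar pattern. CXCL12, ITGA4 and others fall under more than 1 of these. ICAM2, HS2ST1, ADM2 and DMD matched no symbol.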

Additional observations from a re-analysis of the deposited data

How the results depend on the processing

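Of 53 called pairs of a member and a comparison, 36 were called in the same direction under every alternative that gave a value (NCAM1 12 of 15, MET 11 of 12, SDC4 7 of 12, CXCR4 4 of 9, HGF 2 of 5). Kept were 51 of 53 without TMM, 44 of 52 with DESeq2, 49 of 53 without a filter on low counts, 52 of 53 without cells under 2000 UMIs and 50 of 53 without doublets. With the other clusters weighted equally, 26 of 36 were kept, 7 lost and 3 reversed: NCAM1 in cluster 2 (0.029), HGF in cluster 3 (0.20) and SDC4 in cluster 4 (0.053), and 25 pairs were called higher and 10 lower, against 17 and 19. The uncalled value of SDC4 in cluster 7 turned from −0.21 to 0.43 without TMM, 0.14 without cells under 2000 UMIs and 0.23 with equal weights, and that of NCAM1 in cluster 3 over 1 to −0.026 without TMM. The cause was not tested. Without TMM the calls were again 17 higher and 19 lower. The median of all genes moved by over 0.1 without TMM in clusters 3 (−0.13), 7 (0.65), 10 (0.11), 12 (−0.18), 13 (0.11) and 15 (0.23).

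With the library as a replicate block, 23 pairs were called higher and 26 lower against all other cells and 19 in the direct comparisons, and all 53 calls were kept. The direct comparisons called 13 pairs with DESeq2 and 15 without TMM or without doublets, against 17. These counts, and those with equal weights, stand without the share of all genes called under the same setting. A rise or fall in them is therefore not a result about the members. Of 113 log2 ratios of a single library, 0 had the opposite sign to a called fold change. The 113 include ratios of some uncalled pairs, and ratios with no UMI on a side were left out. A call needs the ratios of both libraries to be alike, so this count was largely fixed in advance and adds no support. No test can leave out a library, since 1 sum a side leaves no residual degrees of freedom. The depth of 86 UMIs or fewer limits HGF, CALCR, CD34 and VCAM1.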

Other observations

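PAX7 and PAX3, transcription factors of satellite cells, were counted in few cells. Of the cells of the myogenic clusters, 134 held a PAX7 UMI. In these cells CXCR4 was at 0.0492 and 0.0843 in the libraries, from 15 UMIs, against 0.0296 ± 0.000532 (SD, n = 2 libraries) in the 11789 cells without one. NCAM1 was at 4.77 against 4.82, MET at 0.330 against 0.349 and SDC4 at 0.246 against 0.301, and CD34 had 1 UMI in these cells. The 212 cells with a PAX3 UMI had CXCR4 at 0.0372 ± 0.0179, also from 15 UMIs, and MET at 0.354 ± 0.0420. None of the 134 cells held a CALCR, HGF or VCAM1 UMI. The 11789 cells without a PAX7 UMI held only 44, 14 and 10, so these counts are too few to show a difference. These values were not tested.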
